A study of Mus musculus with 8 samples.

Results

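The motile cilia axoneme genes are 42 mouse genes that code for the moving parts of a motile cilium or the factors that build it, and 41 of them were among the 36297 genes named in 6 lists of DNA methylation peaks from mouse lung. They were chosen by role, and a peak was given to a member when the list named that gene with a distance of 0, that is, when the peak overlapped the gene. Peaks that lay beside a member, from 1 to 10000 bp away, were counted apart. The lungs came from male C57BL/6J offspring (F1) of dams (F0) that had received house dust mite extract (HDM, 100 µg of protein) or saline. Dosing of the dams began 2 weeks before mating and went on 3 times a week through pregnancy and lactation, up to 3 weeks after birth. The offspring received HDM or saline as adults, with sensitisation at 6 weeks of age and challenges on days 14, 18 and 21. Lungs were collected on day 23, once the response of the airways to inhaled methacholine had been measured. The 4 groups were F0-HDM_F1-HDM (dam and offspring given HDM), F0-HDM_F1-Saline (only the dam), F0-Saline_F1-HDM (only the offspring) and F0-Saline_F1-Saline (neither).

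5-methylcytosine (5mC) was measured by MeDIP-seq and 5-hydroxymethylcytosine (5hmC), the product of its oxidation by TET enzymes, by hMeDIP-seq; in each assay, fragments carrying the mark are captured and sequenced. Each group had 1 library per assay, 8 libraries in all, and each library came from a pool of lung DNA from mice of 3 dams. Each list is labelled with a pair of libraries. It was assumed here that peaks were called in the first-named library with the other library of the pair as control, which the sources used here do not state. The challenged-offspring comparison set F0-HDM_F1-HDM against F0-Saline_F1-HDM, the unchallenged-offspring comparison set F0-HDM_F1-Saline against F0-Saline_F1-Saline, and the adult-challenge comparison set F0-Saline_F1-HDM against F0-Saline_F1-Saline. Since no group had a second library, no difference between lists or gene classes could be tested, and the values below describe these libraries. The comparisons of an assay also share libraries, so peaks at the same place in several lists are not independent. The lung was taken whole, and more or fewer ciliated cells in a pool cannot be told apart from more or less of the mark per cell. Each peak has a peak shape score and a p-value that is the upper normal tail of that score, listed up to 0.1. How many reads stand behind a peak is unknown, and the lists do not say whether the mark was gained or lost. No expression was measured in these files, so the lung label could not be checked against marker genes.

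The axoneme, the core of a motile cilium, is a ring of doublet microtubules around a central pair of single microtubules. Outer and inner dynein arms, motors built on very large heavy chains, slide neighbouring doublets past each other. Radial spokes reach from the doublets towards the central pair, nexin links hold the doublets together, and both are needed for a regular bending wave. In the airways the multiciliated cells use these cilia to carry mucus out of the lung, and loss of many of these genes causes primary ciliary dyskinesia in humans. Some dynein heavy chains, such as Dnah8 and Dnah17, are known mainly from the sperm tail. RFX transcription factors, of which Rfx2 and Rfx3 are members here, bind the X-box motif at many ciliary genes.

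The member peaks fell into a few kinds of sequence, and 8 stretches at peak centres show them. They are read on the plus strand of GRCm38, with the CpG sites, where both marks mostly lie, in capitals. Spag17 (chr3:99981217-99981295, intron 4) and Dnah6 (chr6:73106539-73106659, intron 42) held the highest scores of any member, Dnah17 (chr11:118026707-118026827, exon 76), Dnah8 (chr17:30737323-30737443, exon 44), Dnah10 (chr5:124742026-124742146, exon 9) and Tekt2 (chr4:126322292-126322412, exon 11) stand for the exonic hMeDIP-seq peaks, and Rfx3 (chr19:27769748-27769868, intron 18) and Dnah12 (chr14:26741287-26741407, intron 20) for the MeDIP-seq peaks of introns.
Spag17: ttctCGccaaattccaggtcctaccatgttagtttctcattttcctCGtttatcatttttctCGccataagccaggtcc
Dnah6: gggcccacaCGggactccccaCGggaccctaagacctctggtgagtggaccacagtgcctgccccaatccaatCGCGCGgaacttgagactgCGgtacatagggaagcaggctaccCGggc
Dnah17: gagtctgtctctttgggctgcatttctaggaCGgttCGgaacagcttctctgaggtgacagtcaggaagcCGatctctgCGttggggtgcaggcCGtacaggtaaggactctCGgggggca
Dnah8: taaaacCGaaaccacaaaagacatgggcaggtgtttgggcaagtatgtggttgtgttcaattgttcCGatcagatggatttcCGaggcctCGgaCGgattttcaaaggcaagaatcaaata
Dnah10: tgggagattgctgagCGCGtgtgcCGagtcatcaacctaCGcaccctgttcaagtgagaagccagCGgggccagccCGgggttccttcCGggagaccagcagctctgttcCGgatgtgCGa
Tekt2: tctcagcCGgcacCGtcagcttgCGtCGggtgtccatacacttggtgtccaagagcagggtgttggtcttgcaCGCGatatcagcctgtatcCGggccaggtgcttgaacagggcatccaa
Rfx3: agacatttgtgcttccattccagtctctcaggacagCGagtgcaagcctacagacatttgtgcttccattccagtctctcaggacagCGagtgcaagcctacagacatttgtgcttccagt
Dnah12: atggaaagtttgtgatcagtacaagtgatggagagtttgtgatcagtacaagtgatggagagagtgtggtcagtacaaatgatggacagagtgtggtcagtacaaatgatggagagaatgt
The Dnah12 stretch holds no CpG in 121 bases and the Rfx3 stretch 2, while the Dnah10 stretch holds 9 and that of Tekt2 7.

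Of the 42 members, 40 held a peak in at least 1 list, a count that was not made over all genes. Dnali1, a light chain of the inner arms, and Ccdc103, an attachment factor of dynein arms, held none, and Ccdc103 was named in no list. In the challenged-offspring comparison a peak overlapped 19 members (45.2%) by MeDIP-seq, where 7.67% of all named genes were overlapped. In hMeDIP-seq of the same comparison the count was 39 members (92.9%), against 39.3% of all genes, and only Dnali1, Rsph4a and Ccdc103 lacked a peak. In the unchallenged-offspring comparison 36 members (85.7%) held a MeDIP-seq peak, against 34.4% of all genes, and 30 (71.4%) an hMeDIP-seq peak, against 22.2%. In the adult-challenge comparison 34 members (81.0%) held a MeDIP-seq peak, against 27.9% of all genes, and 30 (71.4%) an hMeDIP-seq peak, against 24.3%. The members were overlapped more often than genes at large in every list, and the assay with more overlapped members changed with the comparison, as did the sizes of the lists themselves (13338 MeDIP-seq and 89177 hMeDIP-seq peaks in challenged offspring, 88438 and 38333 in unchallenged offspring, 63967 and 35765 for the adult challenge).

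**Figure D1:**
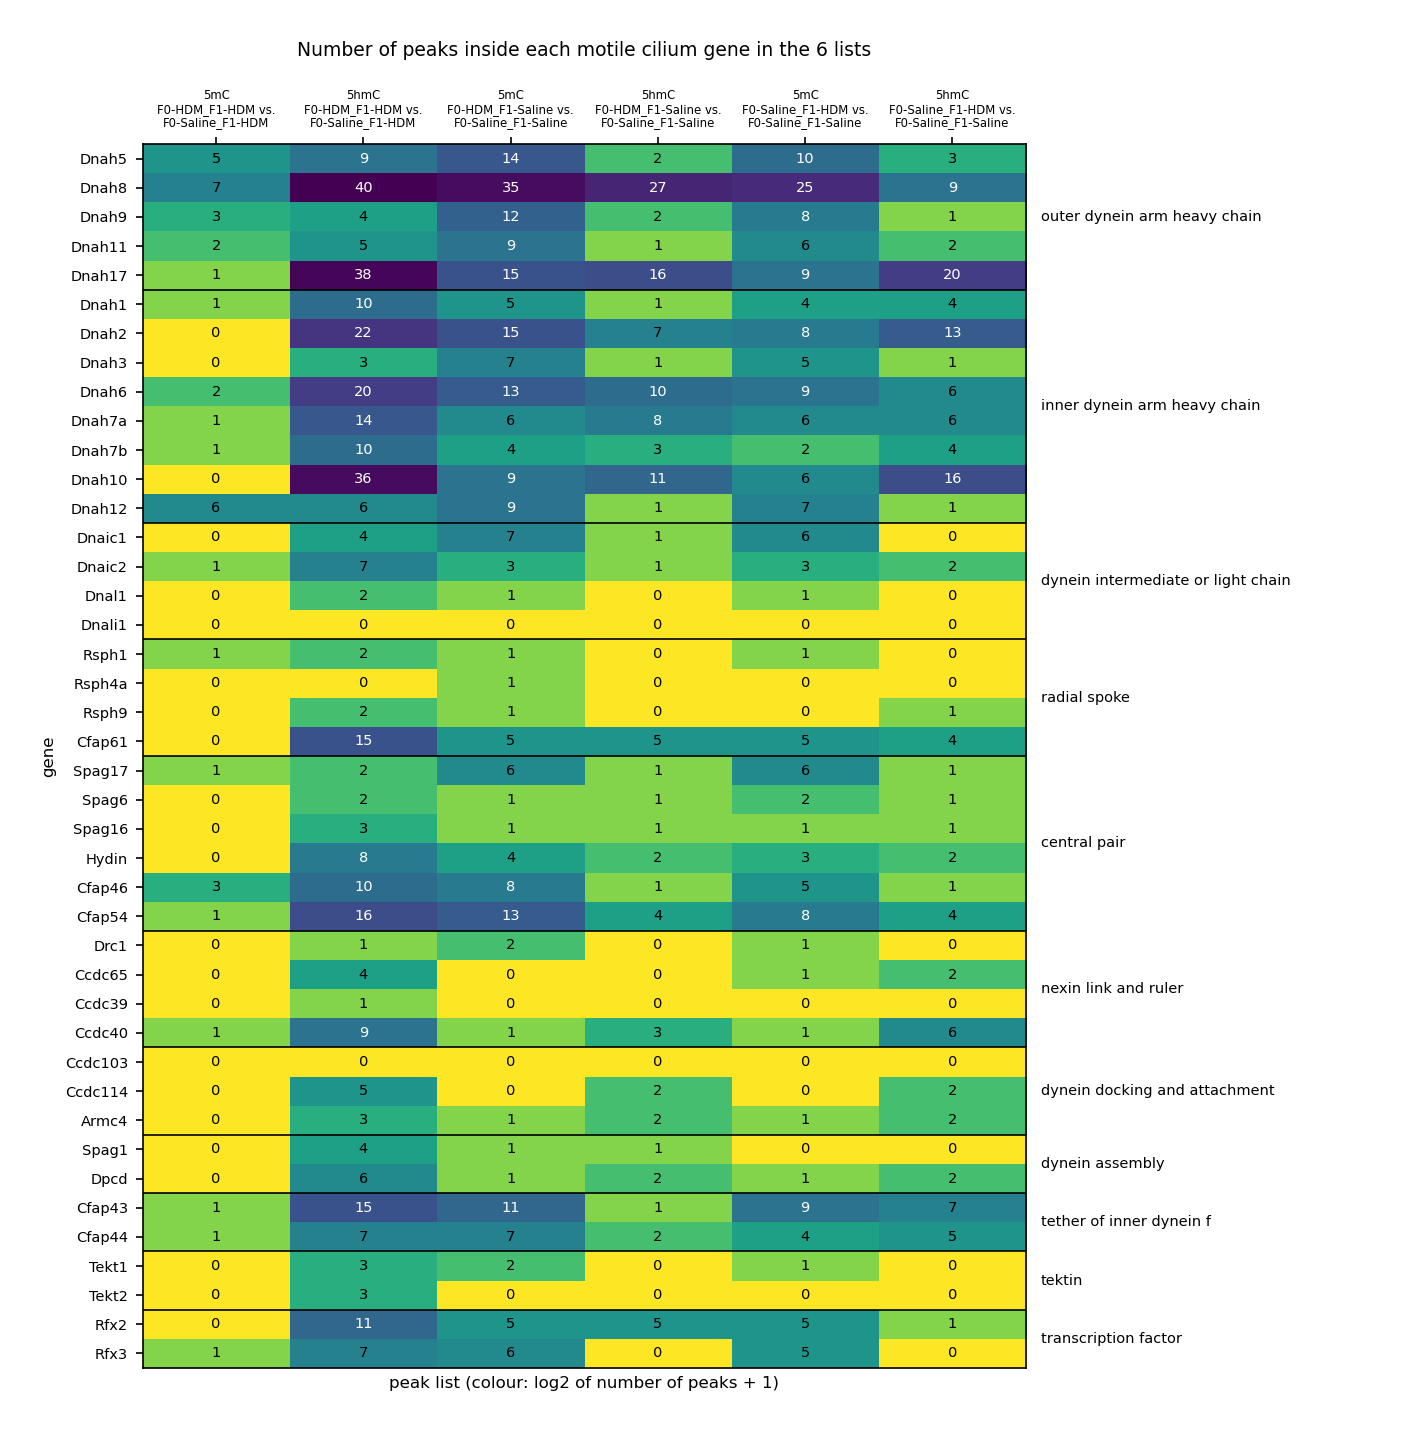
Number of peaks inside each of the 42 genes (rows, grouped by role) in each of the 6 lists (columns), with darker cells for more peaks. Dnah8 has 40 hMeDIP-seq and 7 MeDIP-seq peaks in the challenged-offspring comparison, while the rows of Dnali1 and Ccdc103 are 0 throughout.

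The members are long genes, with a median span of 86.5 kb against 19.4 kb for the protein-coding genes named in a list, and a long gene offers more room for a peak. Their CpG content was close to that of other genes, with a median of 11.9 CpG per kb against 12.1. The 17 members of 150 kb or more held a peak in 12, 17, 17, 16, 17 and 16 cases across the lists, taken in the order MeDIP-seq then hMeDIP-seq of the challenged-offspring, unchallenged-offspring and adult-challenge comparisons. Of the 1403 protein-coding genes of that length, 45.9%, 87.4%, 90.3%, 69.1%, 85.6% and 70.8% did, where the members' shares were 70.6%, 100%, 100%, 94.1%, 100% and 94.1%. The 11 members of 50 to 150 kb were overlapped in 4, 11, 11, 10, 10 and 8 cases, where 24.7%, 79.1%, 82.6%, 53.1%, 73.2% and 53.7% of 3165 genes were. The 14 members below 50 kb had 3, 11, 8, 4, 7 and 6 overlapped genes, or 21.4%, 78.6%, 57.1%, 28.6%, 50% and 42.9%, against 5.78%, 51.6%, 43.8%, 26.5%, 33.4% and 31.4% of 13825 genes. In the shortest class the share by hMeDIP-seq in unchallenged offspring was close to that of other genes.

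Counted per length of gene, peaks in members numbered 40 (6.34 per Mb of gene) by MeDIP-seq and 369 (58.5 per Mb) by hMeDIP-seq in challenged offspring, where all protein-coding genes named had 3.75 and 39.03 per Mb. Unchallenged offspring had 242 MeDIP-seq peaks (38.4 per Mb) and 125 hMeDIP-seq peaks (19.8 per Mb) in members, against 33.7 and 12.97 per Mb in protein-coding genes. For the adult challenge the members held 175 MeDIP-seq peaks (27.8 per Mb) and 130 hMeDIP-seq peaks (20.6 per Mb), against 22.7 and 14.9 per Mb. The members below 50 kb did not share this by MeDIP-seq in unchallenged offspring, with 38.9 per Mb against 49.5 in other genes of that length, nor for the adult challenge, with 31.9 against 32.6. The member peaks made up 0.2999%, 0.414%, 0.274%, 0.326%, 0.274% and 0.363% of the 6 lists, while the members cover 0.238% of the known bases of the genome.

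Peaks beside a member were few. They stood within 10000 bp of 2 members by MeDIP-seq and 14 by hMeDIP-seq in challenged offspring, where 6.73% and 36.9% of all genes had such a peak. The counts were 10 and 6 members in unchallenged offspring, against 40.0% and 18.5% of genes, and 10 and 7 for the adult challenge, against 30.9% and 18.1%. Of 42 members these counts are a smaller share than among all genes in each list. The gap was narrow in most lists and is not read as a result about the members. Dnah1, an inner arm heavy chain, had the most, with 0, 3, 5, 3, 2 and 1 peaks beside it in the order of lists given above. Ccdc114, which helps dock the outer arms, was the only other member with more than 2 beside peaks in a list, with 3 by MeDIP-seq for the adult challenge.

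The listed peaks of MeDIP-seq and hMeDIP-seq lay in different parts of these genes. Each list sets a pair of libraries against each other, so a place without a peak is not shown to lack the mark. By hMeDIP-seq, 220 of 369 member peaks in challenged offspring (59.6%), 60% in unchallenged offspring and 66.2% for the adult challenge touched an exon. Exons make up 6.06% of the members' bases, but a peak counted as exonic if it shared at least 1 base with an exon. The 2 kinds of share are thus not alike, and wider peaks touch exons more easily. Median peak length over the whole lists was 346, 445 and 699 bp by hMeDIP-seq and 413, 390 and 382 bp by MeDIP-seq. By MeDIP-seq the shares were 17.5%, 19.4% and 19.4%. Protein-coding genes at large had 55.9%, 57.2% and 65.5% by hMeDIP-seq and 10.7%, 22.2% and 20.1% by MeDIP-seq, so this split was shared by other genes. The median CpG content of member peaks was 3.51, 3.70 and 3.11 per 100 bp by hMeDIP-seq, and 0.625, 1.22 and 1.08 by MeDIP-seq. Over the whole lists it was 3.70, 4.08 and 3.47 by hMeDIP-seq, and 0.736, 1.05 and 0.985 by MeDIP-seq. No hMeDIP-seq peak of a member lacked a CpG, whereas 5 of 40, 23 of 242 and 19 of 175 MeDIP-seq peaks did. Repeats covered a median of 6.497%, 10.8% and 12.4% of the hMeDIP-seq peaks in members, below the 13.96%, 81.2% and 35.6% over the whole lists, and 52.8%, 37.4% and 41.03% of the MeDIP-seq peaks, against 80.9%, 41.1% and 51.3%. Most peaks were weak, in members as in the lists at large. The median score of member peaks lay between 1.44 and 1.79 in the 6 lists, and that of all peaks between 1.52 and 1.82. A p of 0.01 or less was listed for 3, 82, 17, 12, 14 and 22 member peaks, or 7.5%, 22.2%, 7.02%, 9.6%, 8% and 16.9%, against 15.02%, 23.9%, 8.43%, 14.1%, 9.53% and 28.7% of all peaks.

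In what follows, 3 values of an assay given without names stand for challenged offspring, unchallenged offspring and the adult challenge, in this order. Among the outer arm heavy chains, the motors that set beat frequency, all 5 genes held a peak in all lists. Dnah8 and Dnah17 together held most of these peaks, except by MeDIP-seq in challenged offspring, with 7 and 1 of 18. Dnah8 (253 kb) held 7 MeDIP-seq and 40 hMeDIP-seq peaks in challenged offspring, 35 and 27 in unchallenged offspring and 25 and 9 for the adult challenge. Its hMeDIP-seq peaks in challenged offspring touched exons in 27 of 40 cases, the highest of them at exon 44 of 93 (score 4.10, p of 2.10e-05). Dnah17, at 109 kb the shortest of the 5, held 1 and 38 peaks in challenged offspring, 15 and 16 in unchallenged offspring and 9 and 20 for the adult challenge, and 34 of the 38 touched exons. The hMeDIP-seq peak of exon 76 shown above had a score of 3.16 in challenged offspring, 1.72 in unchallenged offspring and 1.59 for the adult challenge. Dnah5, the outer arm heavy chain most often mutated in primary ciliary dyskinesia, held fewer peaks in a gene of similar length to Dnah8, with 5, 14 and 10 MeDIP-seq peaks and 9, 2 and 3 hMeDIP-seq peaks in the 3 comparisons. All of its 5, 14 and 10 MeDIP-seq peaks lay in introns, and the highest, in intron 22, reached a score of 3.70 in unchallenged offspring and 3.23 for the adult challenge, but 1.51 in challenged offspring. Dnah9 and Dnah11, both expressed in airway cilia, had 3, 12 and 8 MeDIP-seq peaks and 2, 9 and 6 MeDIP-seq peaks. By hMeDIP-seq they had 4, 2 and 1, and 5, 1 and 2, so that these genes of more than 300 kb held fewer hMeDIP-seq peaks than Dnah17.

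The inner arm heavy chains shape the waveform, and all 8 members held a peak in every list but MeDIP-seq of challenged offspring, where Dnah2, Dnah3 and Dnah10 had none. Dnah10 (109 kb) held 36 hMeDIP-seq peaks in challenged offspring, 11 in unchallenged offspring and 16 for the adult challenge, with 32 of 36, 11 of 11 and 16 of 16 in exons, beside 0, 9 and 6 MeDIP-seq peaks. Dnah2 (128 kb), which shares the f type of inner dynein with Dnah10, held 22, 7 and 13 hMeDIP-seq peaks and 0, 15 and 8 MeDIP-seq peaks. Dnah6 held 20, 10 and 6 hMeDIP-seq peaks and 2, 13 and 9 MeDIP-seq peaks. Dnah1, the shortest heavy chain at 63.5 kb, had 10, 1 and 4 hMeDIP-seq peaks, all 10 of the first in exons, and 1, 5 and 4 MeDIP-seq peaks. Dnah3 had 3, 1 and 1 hMeDIP-seq peaks and 0, 7 and 5 MeDIP-seq peaks. Dnah12 had 6, 1 and 1 hMeDIP-seq peaks and 6, 9 and 7 MeDIP-seq peaks, and no MeDIP-seq peak of it touched an exon, with a median of 0.249 to 0.288 CpG per 100 bp. Of its MeDIP-seq peaks, the stretch of intron 20 printed above scored 2.62 in challenged offspring, 2.13 in unchallenged offspring and 2.73 for the adult challenge.

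**Figure D2:**
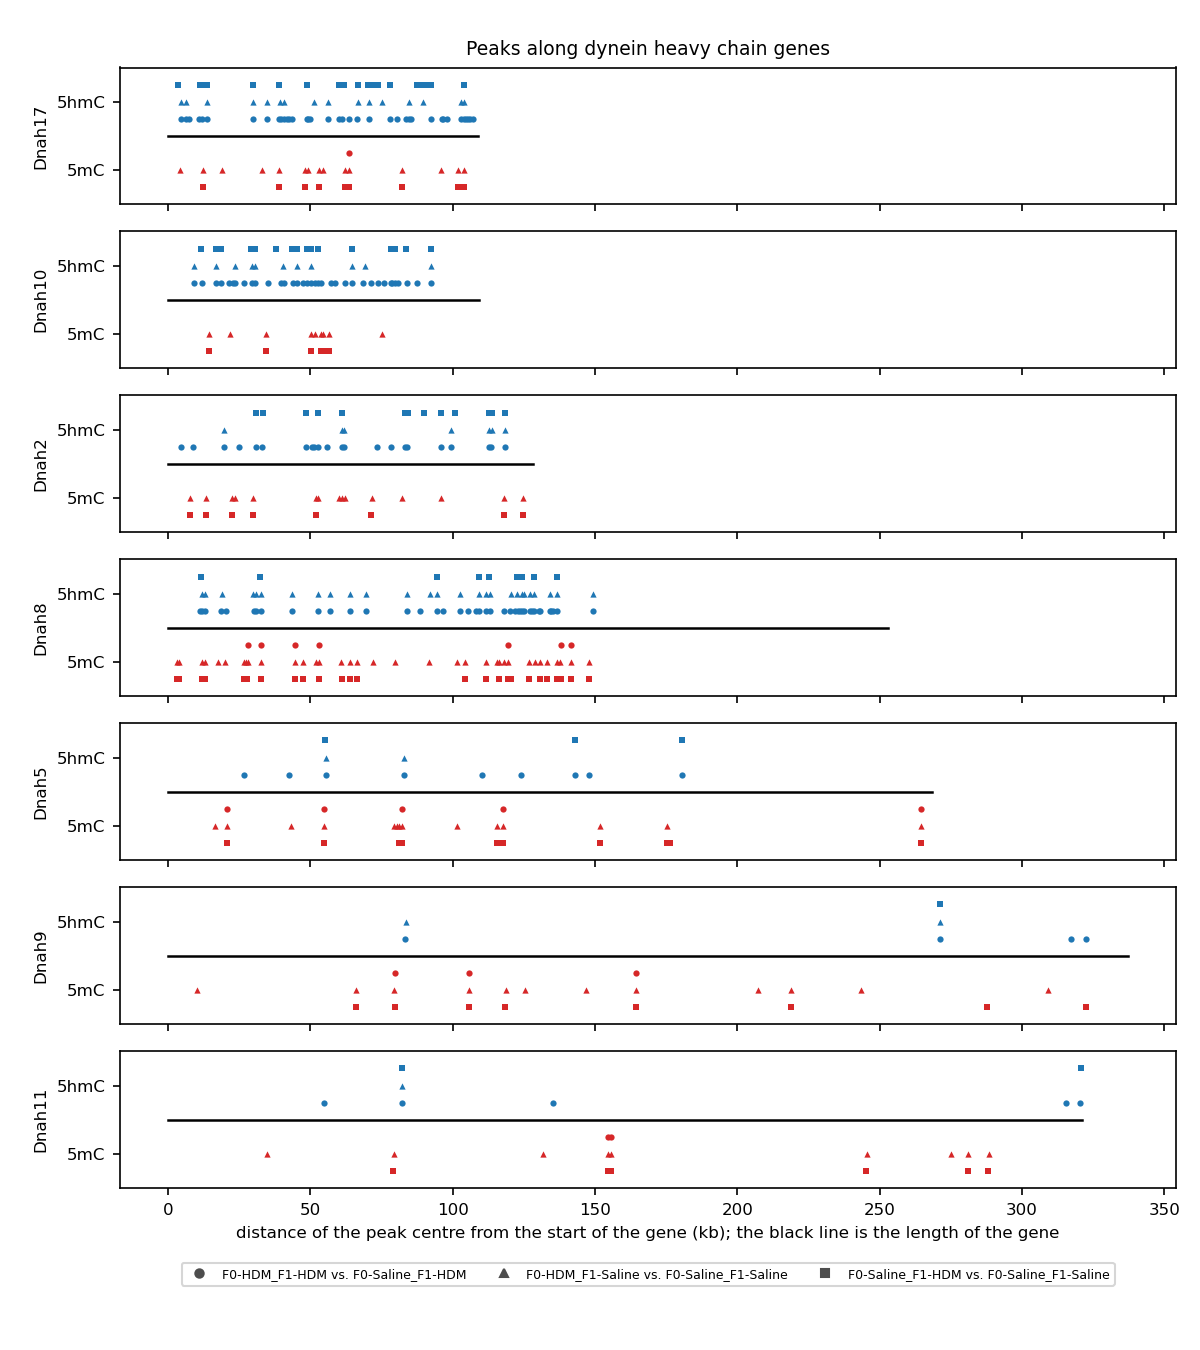
Peak centres along 7 dynein heavy chain genes by distance in kb from the start of the gene, hMeDIP-seq (5hmC, blue) above the black line of the gene and MeDIP-seq (5mC, red) below it, with a symbol per comparison. The 38 hMeDIP-seq peaks of Dnah17 in challenged offspring are spread over 109 kb, while Dnah9, with 337 kb, has 4.

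The number of hMeDIP-seq peaks per length differed widely among the 13 heavy chains and was higher in the CpG-rich ones. In challenged offspring Dnah17 had 34.9 peaks per 100 kb (19.8 CpG per kb), Dnah10 33.0 (16.5), Dnah2 17.1 (15.8), Dnah8 15.8 (13.5) and Dnah1 15.7 (15.0). Dnah6 followed with 9.80 (11.4). The other 7, with 6.18 to 8.06 CpG per kb, had 1.19 (Dnah9) to 4.52 (Dnah7a) peaks per 100 kb. The share of exons also set these genes apart. It was 14.8%, 14.7%, 11.7%, 10.6% and 20.5% of bases in Dnah17, Dnah10, Dnah2, Dnah8 and Dnah1, and 4.12% to 8.29% in the rest. Among 4568 protein-coding genes of 50 kb or more the median was 2.20 and the highest value 48.7 per 100 kb. Of these genes, 99.9% had a lower density than Dnah17 and 99.8% a lower density than Dnah10, while Dnah9 stood above 32.3%. The long genes with 13 to 20 CpG per kb had a median of 8.52 (816 genes), so Dnah17, Dnah10, Dnah2, Dnah8 and Dnah1 were above the median of genes of like CpG content. Those with 6 to 8 CpG per kb had a median of 1.11 (968 genes), and Dnah7a, Dnah7b, Dnah12, Dnah3, Dnah11 and Dnah9 were above it too, Dnah9 narrowly at 1.19. Across the 28 members of 50 kb or more, the density of hMeDIP-seq peaks followed CpG content with a Spearman's rho of 0.789 in challenged offspring, 0.532 in unchallenged offspring and 0.551 for the adult challenge, where the 4568 long genes had 0.644, 0.378 and 0.478. By MeDIP-seq rho was 0.188, 0.727 and 0.621 in members and 0.178, 0.559 and 0.487 in long genes. With gene length, rho of the hMeDIP-seq density was -0.532, -0.375 and -0.185 in members and -0.172, -0.0389 and -0.0390 in long genes. Which of CpG content, exon share and length the density follows was not tested. These correlations are across genes of the same libraries, which are not independent replicates.

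**Figure D3:**
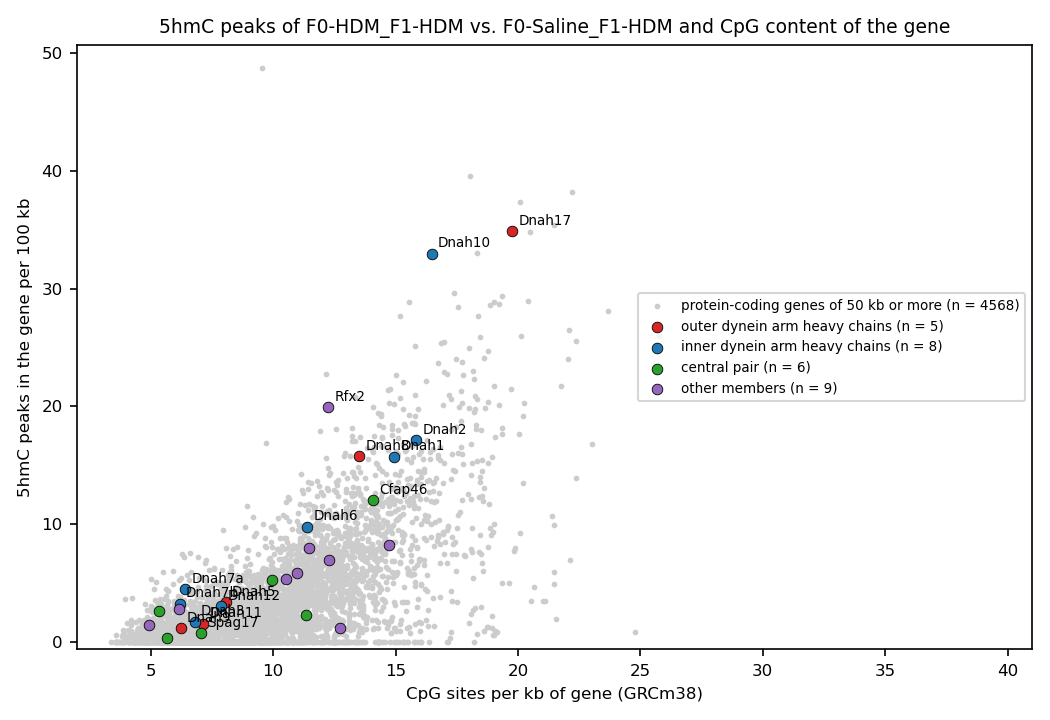
hMeDIP-seq peaks per 100 kb of gene in the challenged-offspring comparison against CpG sites per kb, with grey points for 4568 protein-coding genes of 50 kb or more and coloured points for the 28 members of that length. Dnah17 (34.9 per 100 kb) and Dnah10 (33.0) lie near the top of the cloud, and Spag17, Dnah9 and Dnah11 at its lower left.

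Dnah7a and Dnah7b are close copies on chromosome 1, together with Dnah7c, which is no member. Dnah7a held 1, 6 and 6 MeDIP-seq and 14, 8 and 6 hMeDIP-seq peaks, Dnah7b 1, 4 and 2 and 10, 3 and 4, and Dnah7c 2, 9 and 6 and 10, 10 and 6. Of 41 peaks of Dnah7a, 17 contained at least 1 window of 51 bp that occurs unchanged in a copy, as did 18 of 24 peaks of Dnah7b, but in only 1 peak of each did 50% or more of the windows. Whether reads of these peaks were given to the right copy was not tested. The highest Dnah7a peak, in intron 41, scored 3.99 in challenged offspring, 3.26 in unchallenged offspring and 4.08 for the adult challenge by hMeDIP-seq, and up to 93.7% of its windows had another exact copy in the genome.

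The smaller chains of the dynein arms held fewer peaks in number but are much shorter genes. Per Mb their 4 genes together had 7.02, 77.3 and 70.2 MeDIP-seq peaks and 91.3, 14.05 and 14.05 hMeDIP-seq peaks, above both kinds of heavy chain in MeDIP-seq of unchallenged offspring and of the adult challenge and in hMeDIP-seq of challenged offspring, and below both in the other lists. Dnaic1 and Dnaic2 code for intermediate chains at the base of the outer arm. Dnaic1 had 0, 7 and 6 MeDIP-seq peaks and 4, 1 and 0 hMeDIP-seq peaks, and Dnaic2 had 1, 3 and 3 and 7, 1 and 2. The highest of these was the hMeDIP-seq peak of exon 13 of Dnaic1 in challenged offspring (score 2.87), listed at 1.86 in unchallenged offspring. Dnal1, an outer arm light chain, had 0, 1 and 1 MeDIP-seq peaks and 2, 0 and 0 hMeDIP-seq peaks, with scores of 1.39 to 1.73.

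Of the 4 radial spoke genes, Cfap61 held most of the peaks. It codes for a protein at the base of a spoke, known from ciliated protists, and spans 280 kb. It had 0, 5 and 5 MeDIP-seq peaks and 15, 5 and 4 hMeDIP-seq peaks. Its highest hMeDIP-seq peaks lay in introns 9 and 22 (scores 3.41 and 3.35 in challenged offspring), with repeats over 87.9% and 100% of their bases. The share of their windows with another exact copy reached 59.6% and 92.5%. The spoke head genes Rsph1, Rsph4a and Rsph9 span 10.9 to 22.4 kb and held 0 to 2 peaks in any list. Rsph1 had a MeDIP-seq peak in intron 1 in all 3 comparisons, with scores of 1.35 in challenged offspring, 2.61 in unchallenged offspring and 2.60 for the adult challenge, and its hMeDIP-seq peaks were 2 in challenged offspring, at exons 5 (score 2.05) and 8 (2.38), and 0 in the other lists. Rsph9 had 2, 0 and 1 hMeDIP-seq peaks and 0, 1 and 0 MeDIP-seq peaks, and Rsph4a a single weak MeDIP-seq peak in exon 3 in unchallenged offspring (score 1.40).

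In the central pair genes, Spag17 stood apart by score and not by number. Spag17 codes for a large protein of the central apparatus and was a candidate gene that the study took from these same data. Its place in intron 4 (chr3:99980847-99981471) had MeDIP-seq scores of 20.04 in challenged offspring, 27.5 in unchallenged offspring and 27.1 for the adult challenge, and hMeDIP-seq scores of 18.2, 18.4 and 5.83. The p-values ran from 2.71e-166 (MeDIP-seq, unchallenged offspring) to 2.83e-09 (hMeDIP-seq, adult challenge). The hMeDIP-seq peak of the adult challenge ended at position 99981216, just before the printed stretch, whereas the other 5 peaks ran over it. No window of this place had another exact copy in the genome, and its 625 bases hold 8 CpG sites. The rest of the gene was unremarkable, with a single further hMeDIP-seq peak in challenged offspring (intron 7, score 1.74) and 5 further MeDIP-seq peaks each in unchallenged offspring (1.36 to 2.01) and for the adult challenge (1.29 to 1.61). In challenged offspring the intron 4 peak was its only MeDIP-seq peak.

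The other central pair genes held weaker peaks. Cfap54 and Cfap46 are parts of a projection of the central pair described in Chlamydomonas. Cfap54 had 1, 13 and 8 MeDIP-seq peaks and 16, 4 and 4 hMeDIP-seq peaks, and Cfap46 had 3, 8 and 5 and 10, 1 and 1. The highest Cfap46 MeDIP-seq peak, in intron 13, held no CpG and scored 1.66, 2.42 and 2.59. Hydin, whose loss in mice causes hydrocephalus, had 0, 4 and 3 MeDIP-seq peaks and 8, 2 and 2 hMeDIP-seq peaks over 343 kb. Spag16, the longest member at 898 kb, had 0, 1 and 1 MeDIP-seq peaks and 3, 1 and 1 hMeDIP-seq peaks, no score above 1.86. Spag6 had 0, 1 and 2 and 2, 1 and 1, with an hMeDIP-seq peak in 1 place (chr16:16819642-16820232) at scores of 2.90 in challenged offspring, 1.83 in unchallenged offspring and 2.59 for the adult challenge, and up to 69.5% of its windows had another exact copy. The lists use the name Spag6 for the chromosome 16 gene that GENCODE and RefSeq call Spag6l.

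Set side by side, the 3 structures differed in density when peaks and bases were summed over their genes. The 17 dynein arm genes held 78.7 hMeDIP-seq peaks per Mb in challenged offspring, the radial spoke genes 56.6 and the central pair genes 20.9. In unchallenged offspring the hMeDIP-seq values were 31.5, 14.9 and 5.09, and for the adult challenge 30.1, 14.9 and 5.09. By MeDIP-seq the dynein arms had 10.3, 56.1 and 39.3 peaks per Mb in the 3 comparisons, the radial spokes 2.98, 23.8 and 17.9 and the central pair 2.54, 16.8 and 12.7. By these sums the order was the same in each list. In each the central pair lay below the value for protein-coding genes at large, with Spag16 alone holding 898 kb of its 1.96 Mb. The central pair genes are long, with a median span of 282 kb. Protein-coding genes of 150 kb or more had 20.6, 7.16 and 7.13 hMeDIP-seq peaks per Mb and 3.16, 23.9 and 16.7 MeDIP-seq peaks. The central pair was near the first of these values (20.9 against 20.6) and below the others. The median over the genes gave another order. By hMeDIP-seq the medians in dynein arms, radial spokes and central pair were 5.85, 7.15 and 2.47 peaks per 100 kb in challenged offspring, 1.46, 0 and 0.895 in unchallenged offspring and 1.30, 0.714 and 0.895 for the adult challenge. By MeDIP-seq they were 0.623, 0 and 0.163, then 5.22, 4.49 and 1.82, and 3.73, 0.892 and 2.47. Within the arms, outer heavy chains together had more MeDIP-seq peaks per Mb than inner ones (13.97 against 7.37, 66.0 against 45.5 and 45.0 against 31.5). By hMeDIP-seq they had fewer in challenged offspring (74.5 against 81.0) and for the adult challenge (27.2 against 34.2), and more in unchallenged offspring (37.3 against 28.1). The median outer gene, however, had more MeDIP-seq peaks per 100 kb than the median inner gene only in challenged offspring (0.918 against 0.324), and not in unchallenged offspring (5.22 against 5.45) or for the adult challenge (3.73 against 3.97). By hMeDIP-seq the median outer gene was lower in all 3 comparisons (3.35 against 7.16, 0.745 against 2.08 and 1.12 against 2.44). A few genes carried the sums. Among the outer heavy chains the hMeDIP-seq density in challenged offspring ran from 1.19 to 34.9 per 100 kb, among the inner ones from 1.74 to 33.0 and in the central pair from 0.334 to 12.1, ranges that overlap. The exonic share was 69.1%, 65.2% and 76.1% by hMeDIP-seq in the dynein arms, and 21.1%, 0% and 0% in the radial spokes, where most peaks lay in the introns of Cfap61. In the central pair it was 39.02%, 50% and 30%. The numbers of peaks behind the last shares were 19, 5 and 5 for the spokes and 41, 10 and 10 for the central pair.

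**Figure D4:**
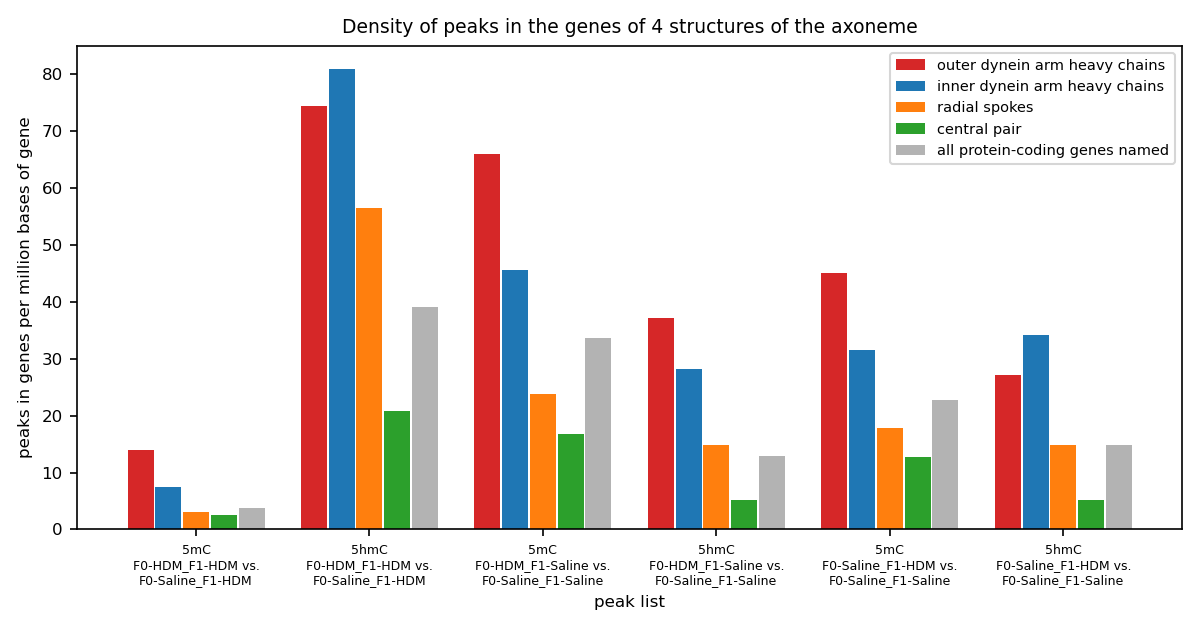
Peaks per Mb of gene (bars, no replicates and so no error bars) for 4 groups of axoneme genes and, in grey, all protein-coding genes named, in each of the 6 lists. The outer and inner dynein arm heavy chains stand at 74.5 and 81.0 in hMeDIP-seq of challenged offspring, and the central pair, at 20.9, is below the grey bar in all lists. The grey bars are not matched for gene length, and protein-coding genes of 150 kb or more had 20.6 in hMeDIP-seq of challenged offspring.

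The nexin link genes Drc1 and Ccdc65 and the ruler genes Ccdc39 and Ccdc40, whose products set the spacing of arms and spokes, held unequal numbers of peaks. Ccdc40, the most CpG-rich of them with 21.2 CpG per kb, had 9, 3 and 6 hMeDIP-seq peaks in 36.7 kb and 1 MeDIP-seq peak in each comparison. Its partner Ccdc39, with 9.23 CpG per kb, had a single hMeDIP-seq peak, at exon 6 in challenged offspring (score 1.40). Ccdc65 had 4, 0 and 2 hMeDIP-seq peaks and 0, 0 and 1 MeDIP-seq peaks, and Drc1 had 1, 0 and 0 and 0, 2 and 1. The docking factors Ccdc114 and Armc4 held mainly hMeDIP-seq peaks, with 5, 2 and 2 in Ccdc114 and no MeDIP-seq peak inside it, and 3, 2 and 2 in Armc4 beside 0, 1 and 1 MeDIP-seq peaks. The last exon of Ccdc114 had the strongest of these (score 3.20 in challenged offspring).

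Spag1 and Dpcd act before the axoneme, Spag1 as a factor that assembles dynein arms in the cytoplasm and Dpcd as a gene linked to ciliary dyskinesia in mice. Dpcd, also a candidate of the study, held no MeDIP-seq peak in challenged offspring and 1 in each other comparison (scores 1.67 and 1.87), and 6, 2 and 2 hMeDIP-seq peaks. All 5 lists with a Dpcd peak had it at exon 4 (chr19:45572228-45572994), with hMeDIP-seq scores of 1.98, 1.37 and 1.59, and the highest Dpcd score, 2.54, was in intron 2 in challenged offspring. Spag1 had 4, 1 and 0 hMeDIP-seq peaks and 0, 1 and 0 MeDIP-seq peaks. Cfap43 and Cfap44 tether the f type of inner dynein, as shown in protists. Cfap43 held 1, 11 and 9 MeDIP-seq and 15, 1 and 7 hMeDIP-seq peaks, and Cfap44 1, 7 and 4 and 7, 2 and 5. A repeat in intron 8 of Cfap43 had hMeDIP-seq scores of 4.05, 2.91 and 3.73, with up to 96.6% of its windows copied elsewhere.

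The tektins form filaments within the doublets. Tekt2, the shortest member with a span of 3.57 kb and 27.2 CpG per kb, held 3 hMeDIP-seq peaks in challenged offspring, at exons 3, 9 and 11 of 11 (scores 1.84, 1.43 and 2.81), and no peak in any other list. Tekt1 had 3, 0 and 0 hMeDIP-seq peaks and 0, 2 and 1 MeDIP-seq peaks. Of the transcription factors, Rfx2 (12.2 CpG per kb) held 11, 5 and 1 hMeDIP-seq and 0, 5 and 5 MeDIP-seq peaks, and Rfx3 (6.17 CpG per kb) 7, 0 and 0 and 1, 6 and 5. The strongest Rfx3 place, in intron 18 with the tandem sequence printed above, was listed by MeDIP-seq alone, with scores of 2.59 in challenged offspring, 3.63 in unchallenged offspring and 3.66 for the adult challenge. Up to 61.9% of its windows had another exact copy. In Rfx2 the strongest was an hMeDIP-seq peak at exon 5, with 3.05, 1.47 and 2.45.

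Peaks of both assays shared bases at few places. In challenged offspring all 19 members with a MeDIP-seq peak also held an hMeDIP-seq peak, but 7 of 40 MeDIP-seq peaks (17.5%) and 7 of 369 hMeDIP-seq peaks (1.90%) of members shared bases, against 15.9% and 2.38% of all peaks. They lay in Ccdc40, Cfap44, Dnah17, Dnah6, Dnah8 and Spag17. In unchallenged offspring 29 members held peaks of both assays, and 27 of 242 MeDIP-seq peaks (11.2%) and 26 of 125 hMeDIP-seq peaks (20.8%) shared bases, against 7.85% and 18.0% of all peaks. For the adult challenge there were 28 such members, with 20 of 175 (11.4%) and 19 of 130 (14.6%) shared, against 7.45% and 13.01%. Counts of members with peaks of both assays, or of a single assay, were not made over all genes. In each comparison the assay with more listed peaks also overlapped more genes at large. In challenged offspring 7.67% of all genes were overlapped by MeDIP-seq and 39.3% by hMeDIP-seq. The shares were 34.4% and 22.2% in unchallenged offspring, and 27.9% and 24.3% for the adult challenge. Whether the single-assay counts of members depart from this was not tested. In challenged offspring 20 members held hMeDIP-seq peaks alone, and none MeDIP-seq peaks alone. In unchallenged offspring 7 members held MeDIP-seq peaks alone (Dnal1, Drc1, Rfx3, Rsph1, Rsph4a, Rsph9 and Tekt1), and Ccdc114 held hMeDIP-seq peaks alone. For the adult challenge 6 members held MeDIP-seq peaks alone (Dnaic1, Dnal1, Drc1, Rfx3, Rsph1 and Tekt1), and Ccdc114 and Rsph9 held hMeDIP-seq peaks alone.

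Merged over the lists, the member peaks occupied 585 places. Of these, 197 were listed by MeDIP-seq only, with a median of 0.845 CpG per 100 bp and 18 of them in exons (9.14%), and 327 by hMeDIP-seq only, with 3.09 CpG per 100 bp and 201 in exons (61.5%). The 61 places of both assays were close to those of hMeDIP-seq only in CpG content, at 3.08 per 100 bp, and 40 of them were exonic (65.6%). MeDIP-seq listed 32 places in all 3 of its lists where no hMeDIP-seq peak was listed, 5 each in Dnah5, Dnah12 and Dnah8, and 2 of the 32 were exonic. hMeDIP-seq had 42 places of the opposite kind, 6 in Dnah10, 5 in Dnah8 and 4 each in Dnah7a and Dnah17, of which 20 were exonic. To choose which places to describe, those with a peak in 5 or 6 lists were taken, 14 in all, bearing in mind that the comparisons share libraries. Apart from Spag17 and Dnah6 they were exonic, and none of these 12 had a score above 3.26. Dnah6 intron 42, wholly repeat and with up to 100% of its windows copied elsewhere, scored 2.23, 3.23 and 3.18 by MeDIP-seq and 5.91, 5.43 and 10.3 by hMeDIP-seq. Dnah8 exons 9 and 10 (chr17:30656356-30657173, 26 CpG) were listed in all 6, with MeDIP-seq scores of 1.79, 2.21 and 1.81 and hMeDIP-seq scores of 2.29, 2.27 and 2.15.

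**Figure D5:**
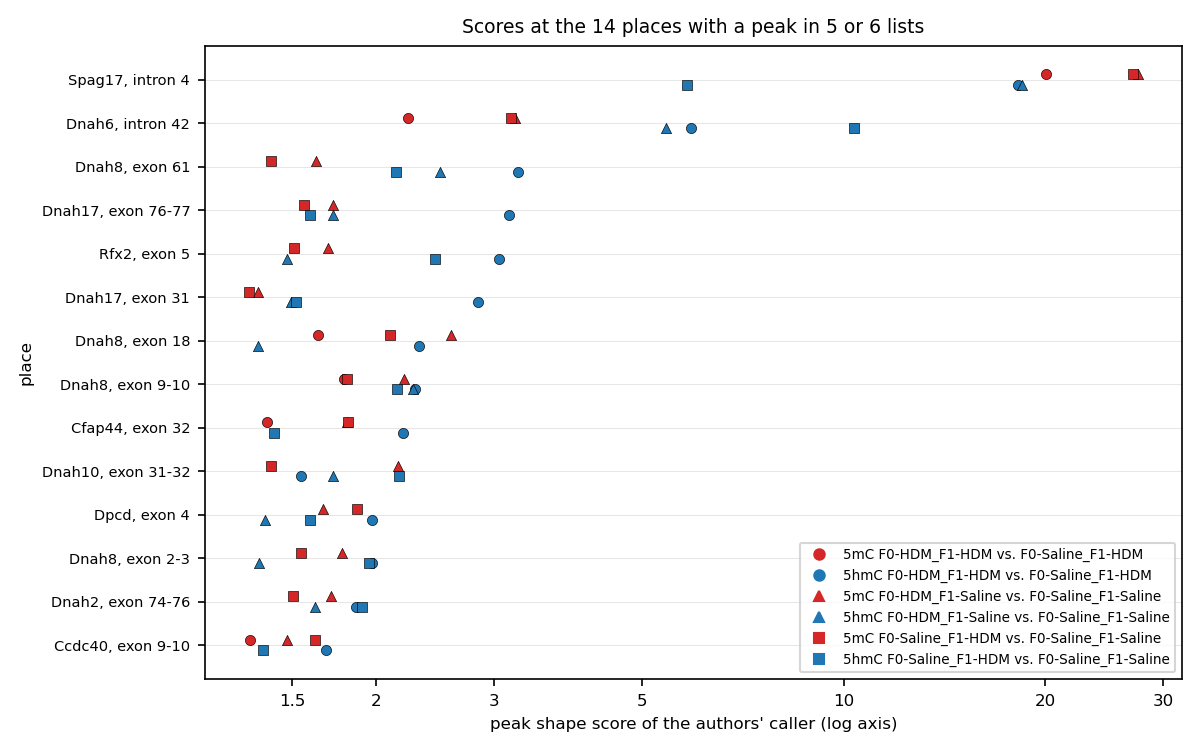
Peak shape scores (log axis) at the 14 places of members with a peak in 5 or 6 lists, red for MeDIP-seq (5mC) and blue for hMeDIP-seq (5hmC), with a symbol per comparison and no point where a list has no peak. Spag17 intron 4 lies between 5.83 and 27.5, and the 12 exonic places lie below 3.26 or at it.

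Within 2000 bp of the outermost start of the gene, 14 peaks were listed in or beside 8 members (Ccdc114, Cfap44, Dnah1, Dnaic1, Rsph1, Rsph9, Spag6 and Tekt2). This count, and those at a p of 0.01 or less below, were not made over all genes. Of the 14, 2, 6 and 4 were MeDIP-seq peaks of the 3 comparisons, and 2, 0 and 0 hMeDIP-seq peaks. The only ones with a p of 0.01 or less were those of Rsph1 intron 1 in unchallenged offspring and for the adult challenge (p of 0.00457 and 0.00467). Counting the start of any annotated transcript, 4, 24 and 17 MeDIP-seq peaks and 60, 18 and 21 hMeDIP-seq peaks of members lay within 2000 bp. These were 10%, 9.92% and 9.71% of member peaks by MeDIP-seq, against 11.7%, 16.7% and 15.96% in protein-coding genes, and 16.3%, 14.4% and 16.2% by hMeDIP-seq, against 23.003%, 22.5% and 26.3%. By this count Ccdc114, Dnah10, Dnah2, Dnah6, Dnah8, Dnah9 and Dnaic2 also had a peak within 2000 bp at that p, most of them inside the gene at the start of a shorter transcript. Of these, Dnaic2 had hMeDIP-seq peaks 140 and 1734 bp into a transcript (exons 2 and 3, scores 2.55 and 2.49) in challenged offspring. In the promoter windows of RefSeq, 250 bases before to 50 after a start, which were at hand for 36 members, a peak was listed only by MeDIP-seq in unchallenged offspring, for Dnah1 (score 1.28) and Dnah8 (1.41). That is 5.56% of members against 2.46% of 27025 genes. In the other lists 0 of 36 members had such a peak, against 0.263%, 3.43%, 1.39%, 1.67% and 2.46% of genes.

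The X-box, the site of RFX factors, was searched in the same windows on both strands by a loose pattern of 15 bases. No other motif was searched. The pattern leaves several positions free, so it also takes in sequences that a stricter X-box consensus would leave out. The name X-box below stands for a match to this pattern. Whether RFX factors bind there was not tested, and the counts are not counts of RFX sites. A match occurred in the promoters of 2 of 36 members (5.56%) and in 1 of 40 other cilium genes with a window. Among all genes a match occurred in 222 of 27025 windows by gene (0.821%). The matches began at position -209 from the start of Spag17 and -116 from that of Rfx2. They are shown in capitals with 10 bases on either side, from RefSeq (GRCm38.p6), on the strand of the gene.
Spag17 X-box: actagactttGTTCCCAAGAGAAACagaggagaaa
Rfx2 X-box: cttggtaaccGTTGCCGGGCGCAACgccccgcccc
No peak of any list overlapped either window. The Spag17 peak of intron 4 by MeDIP-seq in challenged offspring was centred 95850 bp from the start of the gene.

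A further 50 genes of motile cilia, fixed by role, among them Foxj1 and Mcidas, which switch on the ciliary programme, and other assembly, spoke and filament genes, were overlapped in 9, 31, 28, 19, 27 and 18 cases across the lists in the order above (18%, 62%, 56%, 38%, 54% and 36%). These shares lay between those of the 42 members and of all genes. Only 45 of the 50 were named in a list, and the rest counted as not overlapped, whereas the share of all genes is over named genes. Gene length was not matched either. Foxj1 had a single hMeDIP-seq peak in challenged offspring and none in the other lists, and Mcidas none. Wdr63, an inner arm protein, had the most hMeDIP-seq peaks of these genes in challenged offspring, with 16, and Trp73, a regulator of multiciliated cells, the most MeDIP-seq peaks in unchallenged offspring, with 12.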

How the data were processed

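DNA of F1 lung was pooled over mice of 3 dams, sheared to about 200 bp and captured for 5mC or 5hmC, with 1 library for each of 4 groups and 2 assays. Per the submitters' processing notes, CASAVA 1.8.0, FastQC and Bowtie 0.12.9 were used with mm10, and the methods name CLC Genomics Workbench for peak calling. The deposited lists give for each peak its region, the peak shape score and p-value of the authors' caller and the nearest genes with their distances in bp. They hold no counts, fold changes or FDR per peak, and do not say whether a mark was gained or lost. The paper gives a rough number of reads but not the depth of each library, and no interval is given. It also names an FDR threshold for peaks, which could not be applied here because the lists hold no FDR.

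Peaks were joined to members by the gene columns and to GENCODE M21, GRCm38 and RefSeq promoters for spans, exons, CpG and softmasked repeats, and exact copies of 51-bp windows were searched genome-wide (Python 3.11.15, matplotlib 3.10.9, numba 0.67.0, scipy 1.17.1, pandas 2.3.3, numpy 2.4.6). Dpcd was matched to the locus GENCODE calls Gm17018, and the name Spag6 to Spag6l. All member peaks then lay inside their gene. The joins were tested on simulated data. The members and lists were chosen with earlier results of these data known. Named were Spag17 and Dpcd, members with peaks of both assays in a comparison, the 3 highest scores of each list, and members with a peak within 2000 bp of an own start at p of 0.01 or less. Length classes, the CpG relation, copied windows and the order of heavy chains were chosen after seeing the data. Alternatives were stricter p, span or centre in place of gene columns, other windows and overlaps, and, added later, leaving out copied peaks.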

Additional observations from a re-analysis of the deposited data

How the results depend on the processing

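No paired analysis was possible because each group had 1 library per assay, so no replicate could be left out either. The counts of members with a peak depended most on the p-value. At a p of 0.01 or less, 3, 13 and 11 members kept a MeDIP-seq peak in the challenged-offspring, unchallenged-offspring and adult-challenge comparisons, and 27, 6 and 13 an hMeDIP-seq peak, against 0.904%, 4.19% and 3.22% and 15.1%, 2.22% and 8.28% of all genes. At 1e-06 or less, 1, 1 and 1 members remained by MeDIP-seq (Spag17) and 2, 2 and 2 by hMeDIP-seq (Spag17 and Dnah6), or 2.38% and 4.76% of members, against 0.245%, 0.634% and 0.548% of all genes by MeDIP-seq and 0.377%, 0.220% and 0.725% by hMeDIP-seq. Spag17 was a candidate that the study took from these same data, and the Dnah6 peak lay in a copied repeat. These shares are therefore not a result about the members as a set. Assigning peaks by the annotated span or by the centre gave 22 members in place of 19 in MeDIP-seq of challenged offspring (Hydin, Spag1 and Spag16 added). Without peaks of which 50% or more of the windows have an exact copy, an alternative chosen after seeing the data, the counts were 18, 36 and 34 by MeDIP-seq and 39, 24 and 26 by hMeDIP-seq. Requiring 50% overlap between assays left 6, 24 and 18 MeDIP-seq peaks shared. The window beside a gene, at 5000 or 20000 bp, moved 3 of 6 counts by over 1.5 times each.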
